A study of Mus musculus with 8 samples.

Results

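The genes described here are 5 mu-class glutathione S-transferases (Gstm1, Gstm4, Gstm5, Gstm6 and Gstm7) and 5 genes of glutathione supply, use and control (Slc7a11, Gclc, Gclm, Gpx1 and Nfe2l2). They were taken from a fixed list of names and matched by Ensembl gene identifier, which found all 10 among 55417 gene rows. The RNA came from astrocytes of 4 wild-type (WT) mice at postnatal day 29, isolated by flow sorting from cortical tissue and, separately, subcortical tissue. The cortical group held 4 libraries and the subcortical group held 4, with 1 library of each region from every mouse. Mice 2 and 3 were female and mice 1 and 4 were male. The sources used here describe neither the sorting gate nor any reporter allele. The counts do hold a row named Tdtomato, which was at 0 in every library. Libraries were made with a kit that primes at the poly(A) tail and reads the 3′ end of each transcript, so levels are given as CPM (counts scaled to a common library total) without division by transcript length.

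Glutathione is a small thiol made in the cytosol from glutamate, cysteine and glycine, and astrocytes are known to make it and to release it as a source of precursors for neurons. Cystine enters through an antiporter whose light chain, xCT, is encoded by Slc7a11. Glutamate-cysteine ligase, the rate-limiting enzyme built from the catalytic subunit Gclc and the modifier subunit Gclm, starts the synthesis. Glutathione S-transferases couple glutathione to electrophilic compounds, and the glutathione peroxidase Gpx1 spends it to reduce hydrogen peroxide. Nfe2l2 encodes NRF2, the transcription factor that binds antioxidant response elements in many of these genes.

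The promoters of 9 of the 10 genes were found in RefSeq (mouse build GRCm38.p6), each as 250 bases before and 50 bases after a transcript start, in 14 windows in all; Gclc was not matched. These 4 are shown for the genes on which the comparisons turn: the most clearly different gene, its most abundant neighbour in the family, and 2 supply genes. Capitals mark the core of the antioxidant response element, TGACNNNGC on either strand, in Gstm5 and Gclm, and the amino acid response element, TGATGCAA on either strand, in Slc7a11. No such match was found in the Gstm1 window, the downstream one of its 2 listed starts.
Gstm5: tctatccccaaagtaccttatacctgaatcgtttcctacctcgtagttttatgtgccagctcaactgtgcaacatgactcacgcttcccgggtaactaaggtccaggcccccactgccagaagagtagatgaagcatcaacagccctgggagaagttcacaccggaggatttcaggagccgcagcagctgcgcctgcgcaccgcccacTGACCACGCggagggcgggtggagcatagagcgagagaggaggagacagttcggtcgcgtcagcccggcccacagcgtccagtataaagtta
Gstm1: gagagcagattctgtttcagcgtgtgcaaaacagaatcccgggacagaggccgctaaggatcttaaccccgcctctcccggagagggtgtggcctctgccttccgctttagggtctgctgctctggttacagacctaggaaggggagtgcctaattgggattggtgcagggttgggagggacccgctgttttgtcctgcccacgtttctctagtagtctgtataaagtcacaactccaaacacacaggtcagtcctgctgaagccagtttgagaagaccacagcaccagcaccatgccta
Gclm: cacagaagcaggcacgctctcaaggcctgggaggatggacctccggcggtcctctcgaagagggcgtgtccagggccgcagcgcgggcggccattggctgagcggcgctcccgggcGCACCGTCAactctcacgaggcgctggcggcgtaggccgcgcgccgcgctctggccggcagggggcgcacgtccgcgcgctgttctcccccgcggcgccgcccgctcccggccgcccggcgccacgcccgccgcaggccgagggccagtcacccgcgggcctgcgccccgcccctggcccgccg
Slc7a11: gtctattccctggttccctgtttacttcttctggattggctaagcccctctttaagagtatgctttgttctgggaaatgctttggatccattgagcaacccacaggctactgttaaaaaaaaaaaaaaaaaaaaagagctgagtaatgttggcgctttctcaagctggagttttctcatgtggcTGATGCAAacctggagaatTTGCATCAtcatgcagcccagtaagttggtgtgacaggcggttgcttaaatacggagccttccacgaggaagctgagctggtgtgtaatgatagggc
The Gstm5 window lies at chr3:107895604-107895903 on the plus strand, and the Gstm1 window at chr3:108017769-108018068 on the minus strand. The Gclm window lies at chr3:122245307-122245606 on the plus strand and the Slc7a11 window at chr3:50443564-50443863 on the minus strand. In Gstm5 the matching bases TGACCACGC stood at positions -42 to -34 relative to the start, and in Gclm the match was on the reverse strand, at -134 to -126. The same core was found in 4 of the 14 windows, the others being the second Gstm7 window and Nfe2l2, against 12.4% of 32851 RefSeq promoters of the same length. For the Nfe2l2 window, and the first Gstm6 window, the bases after the start were not found in a GENCODE M21 transcript of the gene. The AP-1 motif TGANTCA was found in Gstm5 alone, at -176 to -170, and in 7.8% of all promoters. Slc7a11 held 2 amino acid response elements in opposite directions, at -66 to -59 and -47 to -40, a motif held by 0.9% of all promoters. These are matches of letters, and no binding was measured.

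Gene counts came to 3537852 to 4060891 per cortical library and 2484717 to 3829804 per subcortical library. A single count was worth 0.232 to 0.478 CPM, and a count of 0 allows up to 0.696 to 1.43 CPM. Of the 12 astrocyte markers, Slc1a2 and Glul had the highest means in both regions, whereas Gfap was scarce, at 38.8 ± 3.78 CPM in cortical libraries, against 14.2 ± 5.92 CPM in subcortical ones (SD, n = 4). The 12 markers summed to 32550 to 34042 CPM in cortical libraries, against 21685 to 23662 CPM in subcortical ones. They did not move together, with 4 markers higher (Slc1a2, Slc1a3, Glul and Gfap), 1 lower and 7 not called. The lower one was Aqp4, at 480 ± 92.2 CPM in cortical libraries, against 1041 ± 211 CPM in subcortical ones (SD, n = 4). Markers of other cells also moved with region. The 6 oligodendrocyte markers summed to 781 to 1266 CPM in cortical libraries, against 2107 to 5327 CPM in subcortical ones, and 5 of 6 were lower in the cortical ones. The 7 microglial markers summed to 147 to 333 against 109 to 187 CPM, with 3 of 6 tested higher, and the 7 neuronal markers to 208 to 448 against 47.3 to 56.3 CPM, with 2 of 6 tested higher. The 4 precursor markers summed to 12.4 to 28.3 against 18.6 to 42.2 CPM, and Gpr17 was at 0 throughout. The 5 endothelial markers summed to 3.02 to 8.29 against 0.955 to 14.6 CPM with Tek at 0, the 8 mural and fibroblast markers to 473 to 1027 against 350.2 to 1242 CPM with Lum at 0, and the 4 ependymal markers to 23.7 to 53.4 against 45.1 to 87.4 CPM, with Foxj1 lower. The part of these cells in the results below was not tested.

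**Figure D1:**
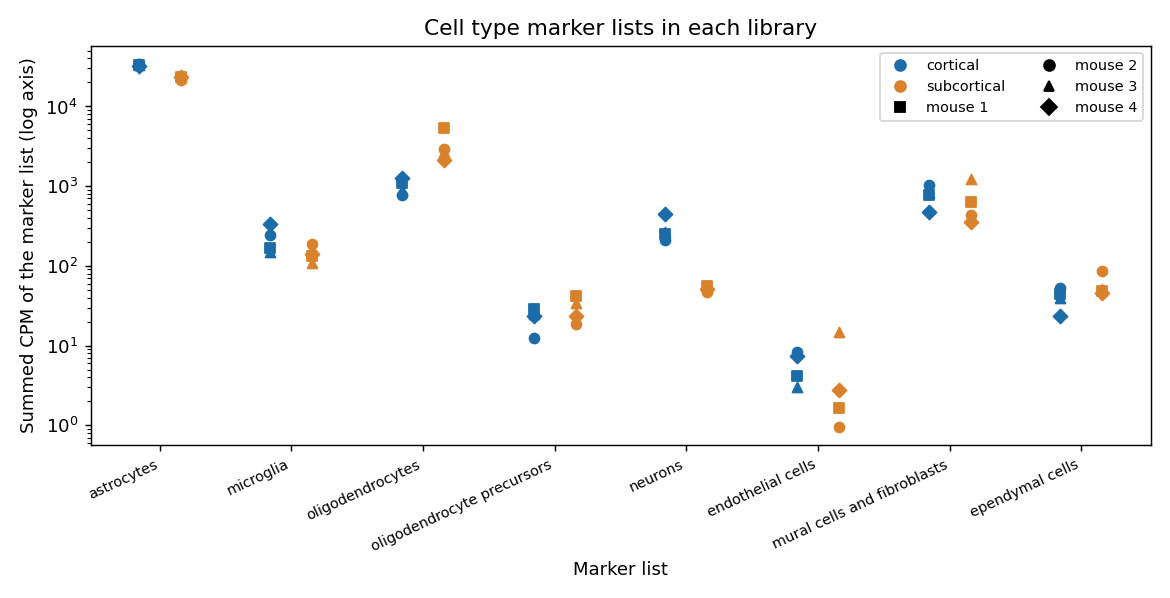
Summed CPM of each cell-type marker list (log scale) in the 4 cortical and the 4 subcortical libraries, 1 point per library. The astrocyte sums lie above 21685 CPM in all 8 libraries, the oligodendrocyte sums are lower in the cortical libraries and the neuronal sums are higher there.

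The 10 genes spanned a wide range of levels. Slc7a11, Gstm1 and Gstm5 led in both regions, Nfe2l2, Gclm and Gpx1 followed well below them, and Gclc, Gstm7, Gstm4 and Gstm6 were the scarcest. In cortical libraries the order of the means ran from Gstm5 at 667 ± 171 CPM through Slc7a11 at 637 ± 72.3 CPM to Gstm1 at 623 ± 98.6 CPM (SD, n = 4), 3 levels that overlap within their spread. In subcortical libraries Slc7a11 led at 668 ± 135 CPM, with Gstm1 at 422 ± 82.1 CPM and Gstm5 at 341 ± 70.2 CPM (SD, n = 4); the Gstm1 and Gstm5 levels overlap, and the lowest Slc7a11 value of 468 CPM lies within the Gstm1 values.

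**Figure D2:**
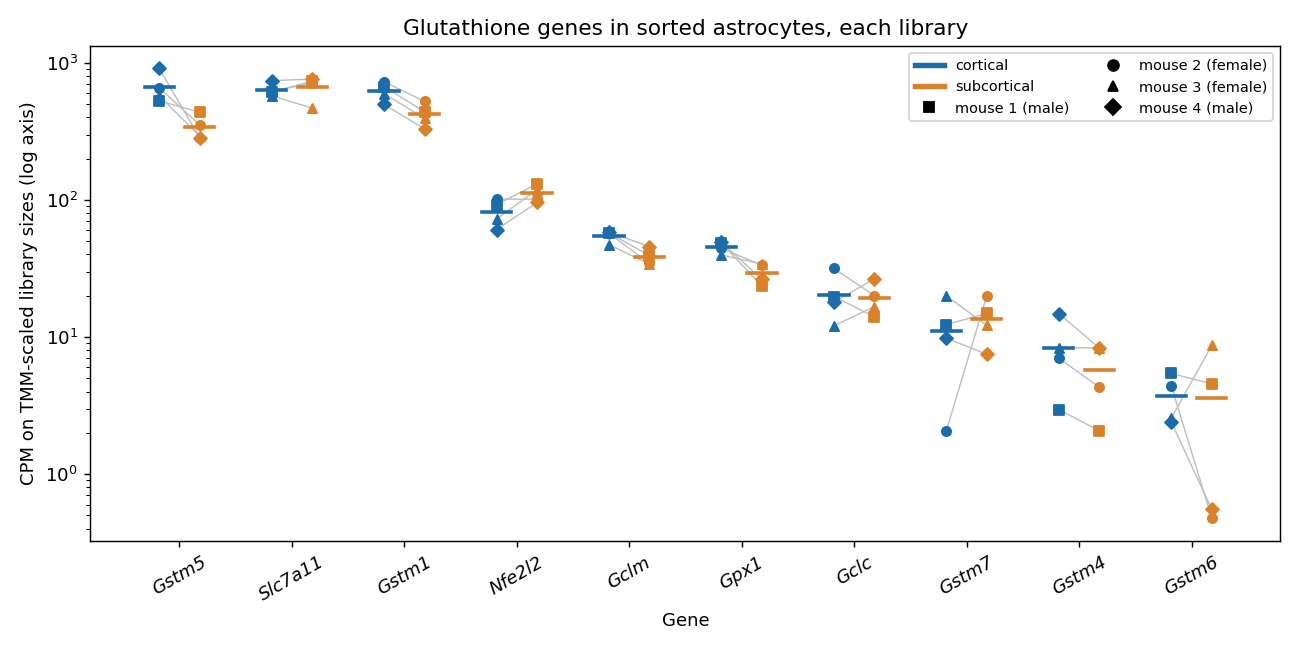
CPM (log scale) of the 10 genes in the 4 cortical and 4 subcortical libraries, 1 point per library with a symbol for each mouse, the group mean as a bar and a line joining the libraries of a mouse. Gstm5, Gclm and Gpx1 have all cortical points above all subcortical ones, and Gstm6 and Gstm4 lie near the lower end of what these depths measure.

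To ask which of these genes differ between astrocytes of the 2 regions, the fit over all 11781 tested genes was used. All 10 genes passed the filter on low counts. Gstm5 rose in the cortical libraries at an adjusted p under 0.05, and none of the 10 fell, in this test or by DESeq2 or limma-voom, with 1 (Nfe2l2) lower at an unadjusted p under 0.05. That is 1 of 10 genes higher and 0 of 10 lower, against 3.42% of all tested genes called higher and 3.39% called lower, 6.81% in all. With the mouse as a block, by DESeq2 and by limma-voom, 2 of the 10 were called higher, Gstm5 and Gstm1. Over all genes and in either direction, the block called 886 (7.52%), DESeq2 1029 and limma-voom 776, against 802 by edgeR without the block. The cortical libraries lay wholly above the subcortical ones for 3 genes (Gstm5, Gclm and Gpx1), a pattern seen in 6.54% of all tested genes, and wholly below them for none of the 10, against 5.64% of all. The log2 fold changes (cortical minus subcortical) were positive in 7 of the 10 genes and had a median of 0.29, against -0.01 over all tested genes. The 5 mu-class genes had a median of 0.51 and the 5 supply and control genes a median of 0.07, which was -0.03 with limma-voom. These medians are the values of Gstm4, with a 95% interval of -0.82 to 1.84, and of Gclc, with -0.66 to 0.79. Whether the 2 sets differ was not tested.

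Gstm5, a mu-class transferase, was the gene with the largest log2 fold change of the 10. It stood at 527, 658, 573 and 910.2 CPM in the cortical libraries of mice 1 to 4, against 436, 352, 292 and 284 CPM in their subcortical libraries. Every cortical library lay above every subcortical one, and the cortical library of mouse 4 stood highest. Its log2 fold change was 0.97 ± 0.19 (SE), a 1.96-fold higher level with a 95% interval of 1.49 to 2.57, at an adjusted p of 0.00193 (edgeR quasi-likelihood test, Benjamini-Hochberg adjustment). Within mice the cortical level was 1.21, 1.87, 1.96 and 3.20 times the subcortical level in mice 1 to 4. The cortical library of mouse 4 was also the highest of the 8 in the summed microglial and neuronal markers; without it the log2 fold change was 0.78 with an adjusted p of 0.0078. In bulk RNA of sorted cells, fewer cells of a type and less RNA per cell cannot be told apart. An antisense gene, 4933431E20Rik, overlaps Gstm5 in the GENCODE M21 annotation (GRCm38). It averaged 123 CPM in the cortical libraries, against 73.0 CPM in the subcortical ones, with a log2 fold change of 0.75 ± 0.19 (SE) and an adjusted p of 0.0136 (edgeR). The sources used here do not say if counting took account of strand. Without it, a read from bases that both genes cover cannot be assigned to either of them. Reads that HTSeq marked as ambiguous stayed out of the tests.

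Gstm1, the other abundant mu-class transferase, had 669.7, 726, 597 and 498 CPM in the cortical libraries of mice 1 to 4. Its subcortical values were 439.5, 524, 393 and 329 CPM. The groups overlapped by 1 pair, since cortical mouse 4 lay below subcortical mouse 2, but all 4 mice had more in cortex, at 1.52, 1.38, 1.52 and 1.51 times the subcortical level. The log2 fold change was 0.56 ± 0.17 (SE), 1.48-fold with an interval of 1.15 to 1.90, at an adjusted p of 0.0548, so it did not pass. With the mouse as a block, which compares the regions within each mouse, the log2 fold change was 0.57 ± 0.15 and the adjusted p 0.0171. Leaving out the cortical library of mouse 4 gave 0.0255 and leaving out the subcortical library of mouse 2 gave 0.0231, both adjusted p from edgeR; the other 10 of 12 fits that left out a library or a mouse did not call it, at up to 0.219. Stretches of 50 bases in the last 300 transcript bases of Gstm1 were shared with other genes in 23.0% of cases, among them Gstm3, which had no count in any library, and the pseudogenes Gm8834 and Gstm2-ps1.

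**Figure D3:**
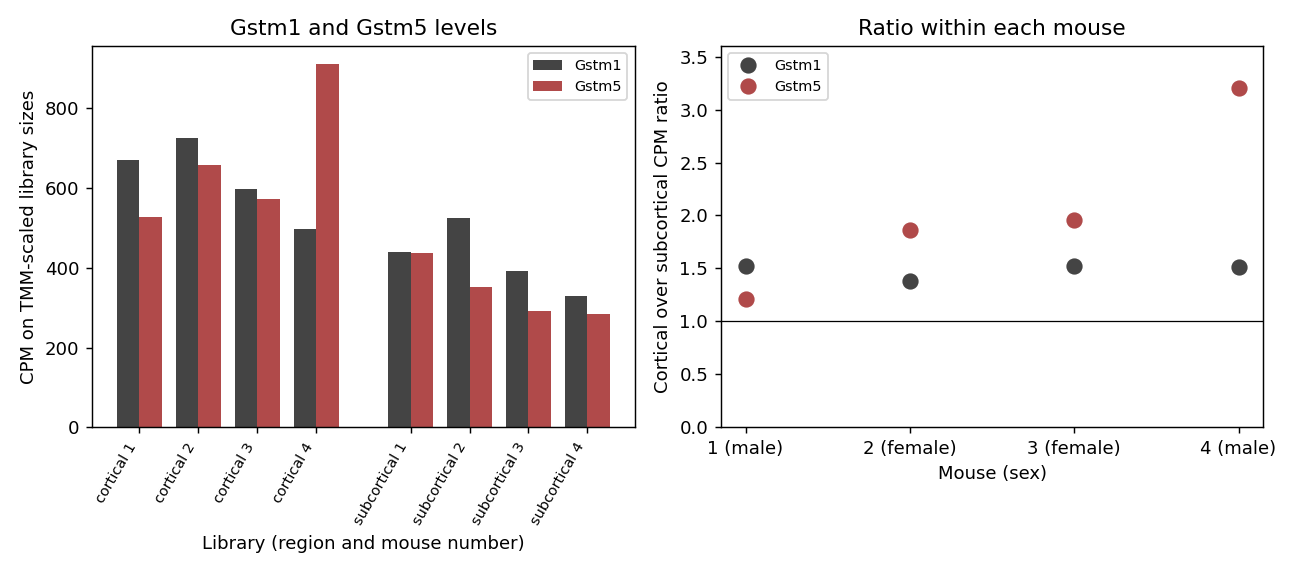
Left, CPM of Gstm1 and Gstm5 as bars for each of the 4 cortical and 4 subcortical libraries; right, the ratio of the cortical to the subcortical CPM in each mouse. The Gstm1 ratios lie between 1.38 and 1.52 in all 4 mice, whereas the Gstm5 ratios lie between 1.21 in mouse 1 and 3.20 in mouse 4.

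Gstm1 and Gstm5 together made up nearly all counts of the 5 mu-class genes. The summed mu-class level was 1218, 1397, 1201 and 1435 CPM in the cortical libraries of mice 1 to 4, against 897, 902, 714 and 630.1 CPM in the subcortical ones. The groups did not overlap, and the ratio of the means was 1.67, with no test since the members were chosen together. Gstm1 supplied 47.8 ± 9.03% of the sum in cortical and 53.6 ± 3.90% in subcortical libraries, and Gstm5 supplied 50.4 ± 8.91% against 43.4 ± 4.28% (SD, n = 4). The ratio of Gstm1 to Gstm5 was 0.990 ± 0.311 in cortical and 1.25 ± 0.210 in subcortical libraries (SD, n = 4), and its lowest value, 0.547, was that of cortical mouse 4.

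The other 3 mu-class genes were scarce. Gstm4 had 12 to 62 counts per cortical and 5 to 30 per subcortical library, or 8.29 ± 4.93 against 5.75 ± 3.10 CPM (SD, n = 4). Its log2 fold change of 0.51 had a 95% interval of -0.82 to 1.84, although the cortical value was the higher one in 4 of 4 mice, in mouse 3 only by 8.36 against 8.33 CPM. Gstm6 had 10 to 22 counts in cortical and 1 to 25 in subcortical libraries, and its interval ran from -1.84 to 1.93. Gstm7 had 8 to 86 against 27 to 42 counts, 11.0 ± 7.38 against 13.6 ± 5.26 CPM, and its interval ran from -1.38 to 0.80. Of the remaining family, Gstm2 had 0, 2.59, 0 and 0.718 CPM in cortical mice 1 to 4 and at most 0.347 CPM in subcortical libraries.

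On the supply side, Slc7a11, the xCT light chain, was as abundant as the leading transferases and did not pass the test. It had 610.1, 623, 574 and 741 CPM in the cortical libraries of mice 1 to 4, against 736, 707, 468 and 761 CPM in the subcortical ones. The groups overlapped, mouse 3 had more in cortex and the other 3 mice had more in subcortical tissue. The log2 fold change was -0.07 ± 0.17 (SE) at an adjusted p of 0.903 (edgeR), and the 95% interval of the fold was 0.746 to 1.22. With plain library totals in place of TMM scaling, which moved the median of all genes by 0.20, its log2 fold change was 0.15. In the annotation 5 other genes overlap Slc7a11, 3 of them on the opposite strand. Slc3a2, the heavy chain shared by xCT and other transporters, had 986 ± 42.6 against 1254 ± 119 CPM (SD, n = 4), with a log2 fold change of -0.35 and an adjusted p of 0.189 (edgeR); DESeq2 called it lower.

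Neither subunit of glutamate-cysteine ligase passed the test. Gclm, the modifier subunit, had 57.4, 57.0, 47.1 and 58.2 CPM in the cortical libraries of mice 1 to 4 and 39.3, 34.4, 34.0 and 45.7 CPM in the subcortical ones. The groups did not overlap, with cortical mouse 3 and subcortical mouse 4 the closest, and the ratios within mice were 1.46, 1.66, 1.38 and 1.27. Its log2 fold change of 0.51 ± 0.22 (SE) had an adjusted p of 0.225 (edgeR). Gclc, the catalytic subunit, had 19.7, 31.6, 12.1 and 17.95 CPM in cortical and 14.1, 20.1, 16.7 and 26.6 CPM in subcortical libraries of mice 1 to 4. The groups overlapped widely and the mice were split, mice 1 and 2 with more in cortex and mice 3 and 4 with less, at a log2 fold change of 0.07 ± 0.35. The level of Gclc relative to Gclm was 0.366 ± 0.131 in cortical and 0.503 ± 0.106 in subcortical libraries (SD, n = 4). Transcript ends of Gclm shared 12.3% of their 50-base stretches with other genes, mostly Ppia and its copies, and a pseudogene, Gm6061, overlaps it on the same strand.

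Gpx1, the cytosolic peroxidase, had 48.3, 44.3, 39.7 and 49.1 CPM in the cortical libraries of mice 1 to 4, against 23.6, 33.4, 34.0 and 26.3 CPM in the subcortical ones. All cortical libraries lay above all subcortical ones, at 1.33 and 1.17 times the subcortical level in the females, mice 2 and 3, and 2.05 and 1.87 times in the males, mice 1 and 4. The log2 fold change was 0.63 ± 0.25 (SE), 1.55-fold, at an unadjusted p of 0.0179 and an adjusted p of 0.157 (edgeR), so it did not pass.

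Nfe2l2, which encodes NRF2, had 92.4, 101, 72.7 and 60.8 CPM in the cortical libraries of mice 1 to 4 and 131, 101, 118 and 95.8 CPM in the subcortical ones. Mouse 2 had equal levels, the other 3 mice had 0.707, 0.614 and 0.635 times the subcortical level in cortex, and the groups overlapped. Its log2 fold change was -0.45 ± 0.20 (SE), 0.734-fold, at an unadjusted p of 0.0361 and an adjusted p of 0.240 (edgeR), and it did not pass. Of the 10 genes, 5 had an unadjusted p under 0.05 (Gstm1, Gstm5, Gclm, Gpx1 and Nfe2l2), against 17.4% of all tested genes.

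**Figure D4:**
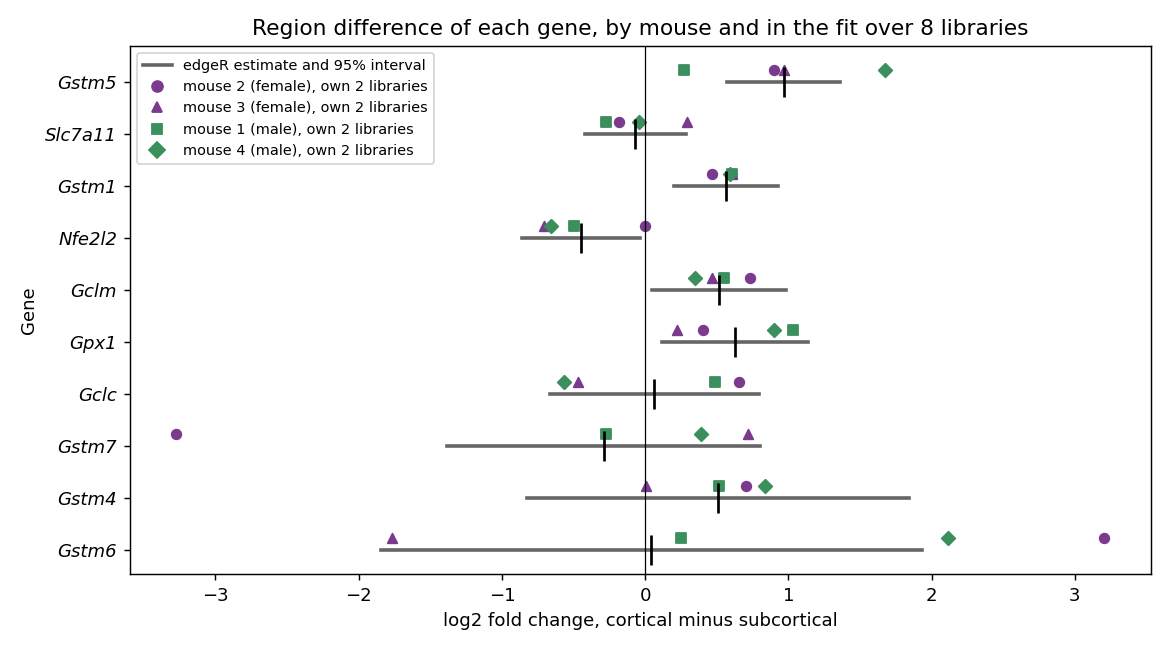
The log2 fold change (cortical minus subcortical) of the 10 genes, with the fitted value and 95% interval over 8 libraries as a bar and the difference within each mouse as a point. The unadjusted intervals of Gstm5, Gstm1, Gclm and Gpx1 lie above 0 and that of Nfe2l2 below it. Of these Gstm5 alone passed the adjusted test in the plotted fit, which had no mouse block. With the mouse as a block Gstm1 passed too. The intervals of Gstm4, Gstm6 and Gstm7 are wider than the rest.

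Sex was compared on counts summed over both regions of each mouse, in 2 female against 2 male mice. None of the 10 genes was called by edgeR's quasi-likelihood test, none had an unadjusted p under 0.05, and none was called by DESeq2 or limma-voom. Over all 13402 tested genes 0.0373% were called and 3.73% had an unadjusted p under 0.05. The log2 differences (female minus male) were 0.23 for Gstm1 with a 95% interval of -0.20 to 0.66, -0.13 for Gstm5 with -0.53 to 0.26, and -0.24 for Slc7a11 with -0.62 to 0.13. With 2 mice per sex these intervals leave room for differences up to those bounds.

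Whether the region difference itself differed between the sexes was tested as an interaction. It was called for none of the 10 genes by edgeR, with none at an unadjusted p under 0.05, and none by DESeq2 or limma-voom; of all 13334 tested genes 0% were called and 3.76% had an unadjusted p under 0.05. Gstm5 had a log2 fold change of 0.94 in females and 0.99 in males, and Gstm1 of 0.54 in females and 0.60 in males. In the females alone Gstm5 had an adjusted p of 0.0822 and in the males alone 0.0571, each over 2 libraries per region, where 2.25% of all genes were called in females and 2.34% in males. Gpx1 had 0.32 in females and 0.96 in males, with an interaction of -0.64 and a 95% interval of -1.68 to 0.41 (unadjusted p of 0.218 and adjusted p of 1.0, edgeR).

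The rest of the pathway was described from 5 lists of 98 further genes, of which 72 were tested, 4 were higher and 1 was lower in cortical libraries, against 3.42% higher and 3.39% lower over all tested genes. Their median log2 fold change was 0.06. Among the other glutathione S-transferases 9 of 21 genes were tested, 1 fell and none rose, with a median of -0.57. The one that fell was Gstt3, a theta-class transferase, with 19.5, 14.2, 21.4 and 10.8 CPM in cortical mice 1 to 4 against 66.6, 61.6, 66.7 and 82.5 CPM in subcortical ones. The groups lay far apart, at a log2 fold change of -2.07 ± 0.26 (SE) and an adjusted p of 1.33e-05 (edgeR). It thus moved in the opposite direction to Gstm5. Mgst1, a microsomal transferase, had 36.0 ± 21.3 against 65.8 ± 22.9 CPM (SD, n = 4). Its adjusted p was 0.149, or 0.0425 with the mouse block (edgeR). Of 12 fits that left out a library or a mouse, 2 called Mgst1. Over all 12 its adjusted p ran from 0.0100, without the cortical library of mouse 2, to 0.615 (edgeR). Gstt3 shared 24.2% of the 50-base stretches of its transcript ends with other genes.

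Among the other genes of glutathione synthesis, breakdown and transport 11 of 17 were tested, 1 rose and none fell, with a median of 0.82. DESeq2 called 2 higher and 1 lower, and limma-voom called 2 higher, with a median of 0.43. Oplah, the 5-oxoprolinase that returns 5-oxoproline to glutamate in the gamma-glutamyl cycle, had 102, 131, 108 and 109 CPM in cortical mice 1 to 4 against 46.7, 47.3, 71.2 and 37.4 CPM in subcortical ones. Its groups did not overlap and its log2 fold change was 1.15 ± 0.21 (SE) at an adjusted p of 0.00113 (edgeR). Ggt7, a member of the gamma-glutamyltransferase family, had 36.6 ± 5.06 against 19.3 ± 6.01 CPM (SD, n = 4). Its adjusted p was 0.0547, or 0.0495 with the mouse block (edgeR). Of 12 fits that left out a library or a mouse, 1 called Ggt7. Over all 12 its adjusted p ran from 0.0271, without the subcortical library of mouse 1, to 0.226 (edgeR). Gss, glutathione synthetase, which adds glycine in the last step, had 9.52 ± 6.43 against 5.05 ± 2.71 CPM and an adjusted p of 0.534.

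None of the 12 tested genes of 15 other glutathione-using enzymes was called by edgeR, DESeq2 or limma-voom, and 1 (Glrx2, a glutaredoxin) was higher at an unadjusted p under 0.05; the list median was -0.02, or 0.19 with library totals. Gsr, glutathione reductase, had 5.75 ± 2.68 against 6.70 ± 2.54 CPM (SD, n = 4). Among the other antioxidant enzymes 19 of 20 were tested and 2 rose, both peroxiredoxins, with a list median of 0.19. Prdx6, the 1-cysteine peroxiredoxin that uses glutathione, had 1188, 1203, 1287 and 1309 CPM in cortical mice 1 to 4 against 739, 706, 707 and 918 CPM in subcortical ones. Its groups did not overlap, at a log2 fold change of 0.70 ± 0.15 (SE) and an adjusted p of 0.00381 (edgeR). Prdx1, a peroxiredoxin reduced by thioredoxin, had 576 ± 33.8 against 371 ± 59.4 CPM (SD, n = 4), a log2 fold change of 0.64 ± 0.16 and an adjusted p of 0.0150 (edgeR); its transcript ends share stretches with many pseudogenes. Its adjusted p was 0.0582 without the cortical library of mouse 3 and 0.0512 without the subcortical library of mouse 2, and 0.0611, 0.0981 and 0.0519 without both libraries of mouse 1, 2 or 3.

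Of the 25 listed partners, regulators and known targets of NRF2, 21 were tested, 1 rose and none fell, with a median of 0.06. The one that rose was Cbr3, a carbonyl reductase, with 96.6, 78.2, 73.8 and 76.3 CPM in cortical mice 1 to 4 against 21.1, 18.1, 30.2 and 28.8 CPM in subcortical ones. Its groups did not overlap and its log2 fold change was 1.71 ± 0.24 (SE) at an adjusted p of 4.02e-05 (edgeR). Keap1, whose protein binds NRF2 and marks it for degradation, had 47.7 ± 14.2 against 48.6 ± 13.5 CPM (SD, n = 4). Nqo1, a quinone reductase often used as a readout of NRF2, had 5.76 ± 4.23 against 10.2 ± 4.34 CPM (SD, n = 4) and an adjusted p of 0.547.

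**Figure D5:**
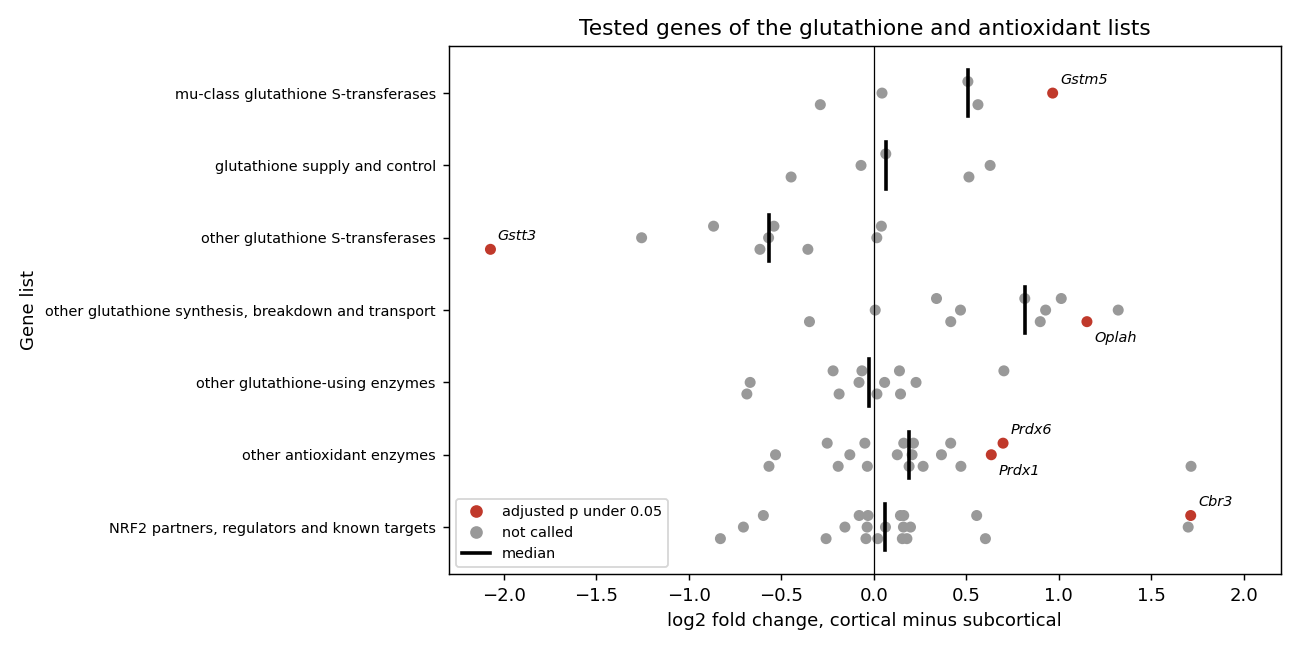
The log2 fold change (cortical minus subcortical) of every tested gene in the 2 sets described here and in the 5 further lists, 1 point per gene, with called genes named and the list median as a bar. Gstm5, Oplah, Prdx6, Prdx1 and Cbr3 lie above 0 and Gstt3 at -2.07. The other genes plotted were not called in this fit, which had no mouse block.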

How the data were processed

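RNA of flow-sorted astrocytes was measured in 8 libraries, 4 per region, made with the QuantSeq 3′ FWD kit (Lexogen) after RNeasy Plus Micro extraction, per the labels' protocols. For each library the authors deposited a table of whole-number gene counts, analysed here without change. Per the submitters' processing notes the tools were STAR 2.6.0, HTSeq 0.9.0, FastQC 0.11.5 and DESeq2 1.35.0, and GRCm39 was the build. Reads that HTSeq assigned to no feature made up 30.2 to 40.7% and ambiguous reads 0.384 to 0.548% of a library, and both stayed out of library sizes and tests. A series-level table of normalized values with 8 sample columns was not used. The sources used here do not say if molecular identifiers were counted, and floors cover counting error only, whereas the intervals of fold changes come from the fitted spread between libraries.

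CPM are per effective library size after TMM scaling. Region was tested with edgeR 4.0.16 (R 4.3.3), quasi-likelihood, on genes with enough counts (filterByExpr, 10 counts in 4 libraries scaled for size, 15 in total), with Benjamini-Hochberg adjustment over all tested genes and a threshold of 0.05. SE is the size of the log2 fold change divided by the square root of F. Sex was tested on counts summed per mouse, and the interaction in a fit with a mean per sex and region. Region within each sex, and sex within each region, were compared in that same fit to all 8 libraries. Floors are 3 counts per library and intervals cover 95%. The scripts were tested on simulated data. There edgeR recovered 30.9% of region changes of log2 size 1 and 77.1% of those of size 2. For interactions of these sizes it recovered 4.08% and 22%. False calls by region were 4 of 108 by edgeR, 22 of 140 by DESeq2 and 0 of 89 by limma-voom. Shared transcript ends and overlaps were read from GENCODE M21 and promoters from RefSeq, both of build GRCm38, not the build used for counting.

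The genes and lists were chosen with earlier results of these data known. Named are all 10 genes, every called gene of the 5 pathway lists, and the 3 genes most alike in pattern to the most abundant gene and to the gene with the smallest p; a few others (Mgst1, Ggt7, Slc3a2, Gss, Gsr, Glrx2, Keap1, Nqo1, Gstm2 and 4933431E20Rik) were named after their values were seen. An exact permutation test of the summed mu-class level had been planned and is not given, since it would be a p for a score over chosen genes.

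Samples are paired by the mouse number in their titles: both samples of a number come from 1 animal, and the 4 samples of a region are different animals. As a check, deviations from region means correlated at 0.0248 to 0.0657 between libraries of the same mouse and at -0.0936 to 0.0523 between regions of different mice, over 11781 genes. These ranges overlap and all values are small, so the check cannot decide the pairing, which rests on the titles. No 2 libraries of a region were alike within counting error (chi-square over degrees of freedom 12.2 to 25.2). Alternatives were other scalings, DESeq2 1.42.0, limma-voom (limma 3.58.1) and other filters. Further ones were the mouse as a block, a sex covariate, region within each sex, and leaving out each library or mouse.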

Additional observations from a re-analysis of the deposited data

Results flagged for a closer look

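Gclm in the cortical library of mouse 3 stood apart from the other cortical libraries. It had 47.1 CPM there, against 57.0 to 58.2 CPM in the other 3, a gap of 0.895 of the group's whole range. Of 24 groups of 4 libraries looked at in this way 1 stood out, and chance flags about 1 in 20. With that library left out, the log2 fold change (cortical minus subcortical) of Gclm was 0.58 at an adjusted p of 0.240 (edgeR).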

How the results depend on the processing

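Gstm5 stayed higher in cortical libraries at an adjusted p under 0.05 in 12 of 12 fits that left out a library or mouse. It did so in 9 of 11 other settings, the exceptions being the comparisons within each sex. Gstm1 was called besides Gstm5, giving 2 called genes in place of 1, with library totals, DESeq2, limma-voom, no filter, the 5 CPM filter, sex as a covariate and the mouse as a block, at adjusted p of 0.00476, 0.0149, 0.0232, 0.0266, 0.0490, 0.0473 and 0.0171; over all alternatives its adjusted p ran between 0.00476 and 0.418. In the same order, these settings called 926, 1029, 776, 997, 814, 814 and 886 genes in all, against 802 in the main fit. Of the genes described here, the comparisons within each sex called 0, and leaving out libraries or mice gave 1 to 2. With the replicate block 886 genes were called in all, 770 of them among the 802 without it, and beyond Gstm1, Mgst1 and Ggt7 it changed no call of a gene named here. Over all genes the comparisons within each sex gave 300 (females) and 312 (males) calls. Leaving out libraries or mice gave 474 to 775, the fewest without mouse 1. Library totals moved the median of all genes by 0.20 on the log2 scale and gave 682 higher and 244 lower calls (73.7% higher), against 403 and 399 (50.2%) with TMM.

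Of the pathway genes, the comparisons within each sex ended the calls of Prdx1 (0.129 in females, 0.383 in males), Oplah (0.101 in females) and Prdx6 (0.216 in males). The summed mu-class ratio of 1.67 was 1.94 with library totals and 1.89 without Gstm1, 1.45 without Gstm5 (an alternative chosen after the data were seen), and 1.57 to 1.76 with a library left out. Small region differences changed sign: Slc7a11 to 0.15 with library totals and 0.033 in females, Gclc to -0.033 with limma-voom and -0.12 in males, and Gstm6 to -0.41 in females. Leaving out libraries gave -0.21 to 0.0018 for Slc7a11, -0.23 to 0.33 for Gclc, -0.40 to 1.14 for Gstm6 and -0.79 to 0.30 for Gstm7. Genes called by sex were 5, or 1 with limma-voom, 15 without the filter and 12 to 30 with a mouse left out. Sex differences that changed sign were Gstm4 (0.27 with limma-voom, 0.26 in subcortical libraries), Gclc (-0.053 and -0.16 in the same settings), Nfe2l2 (-0.044 in subcortical libraries), Gstm6 (-0.17) and Gpx1 (-0.21 in cortical libraries). With a mouse left out they ran from -0.70 to 1.45 for Gstm4, -0.28 to 0.034 for Gstm5, -0.34 to 1.39 for Gstm6, -0.39 to 0.63 for Gstm7, -0.50 to 0.48 for Gclc, -0.040 to 0.064 for Gpx1 and -0.15 to 0.33 for Nfe2l2. Interactions were called for 1 gene without the filter, 1 with the block and 1 to 2 with a library left out. Those of the genes described here ran from -0.29 to 0.16 for Gstm1, -1.80 to 1.09 for Gstm4, -0.40 to 0.37 for Gstm5, -3.16 to 2.15 for Gstm6, -2.92 to 0.33 for Gstm7, -0.47 to 0.91 for Gclc, -0.077 to 0.51 for Slc7a11 and -0.061 to 0.56 for Nfe2l2. The cause of these changes was not tested. Gstm6 gave no value with the 5 CPM filter, and sex allowed no block, since each mouse has 1 sex. The lowest counts in a library were 5 for Gstm4, 1 for Gstm6 and 8 for Gstm7.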

Other observations

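The genes whose log2(CPM + 1) followed Slc7a11 most closely over the 8 libraries, among 8397 genes of at least 10 CPM, were Ube2k, Dlgap1 and Cab39, with Pearson correlations of 0.982, 0.949 and 0.946. Dlgap1 averaged 509 ± 26.4 CPM in the cortical libraries, against 547 ± 112 CPM in the subcortical ones (SD, n = 4). The genes nearest to Gstm5 were Ttll12, Fkbp10 and Pygb, at 0.982, 0.982 and 0.970. Pygb, the brain form of glycogen phosphorylase, averaged 665 ± 128 CPM in the cortical libraries, against 452 ± 41.6 CPM in the subcortical ones (SD, n = 4), with a log2 fold change of 0.56 and an adjusted p of 0.0447 (edgeR), and Fkbp10 had 0.62 with 0.0353. These libraries share their region difference and depth, so the correlations are descriptions of 8 points chosen as the highest of many.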
